A study of Mus musculus with 6 samples.

Results

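The BMP pathway and Id genes described here are 10 genes of the mouse lens at E15.5, where E counts embryonic days, chosen by symbol out of the 41128 features listed for each library. They are the ligand genes Bmp4 and Bmp7, the type I receptor genes Bmpr1a and Bmpr1b, the inhibitory SMAD genes Smad6 and Smad7, and the target genes Id1, Id2, Id3 and Id4. All 10 were found in the files. The conditional knockout (cKO) group is 3 libraries from lenses of mice with floxed alleles of Itgb1, the gene of β1-integrin, and the MLR10 Cre transgene, on a strain background given as mix, with 30 lenses pooled in each. The wild-type group is 3 libraries from C57Bl/6 lenses of the same age, with 75 lenses pooled in each, and the labels give it neither a floxed allele nor Cre. MLR10 Cre is driven by a modified αA-crystallin promoter and acts in lens epithelial and fiber cells. The wild-type records repeat samples of an earlier series. Itgb1 genotype, Cre, strain, pool size, library depth and series of origin therefore differ between the groups together and cannot be told apart.

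Bone morphogenetic proteins (BMPs) are secreted ligands that bind paired type I and type II receptor kinases. The activated type I receptor phosphorylates SMAD1, SMAD5 or SMAD9, which enter the nucleus with SMAD4 and switch on target genes. Among these are the Id genes, whose proteins pair with E proteins and keep them off DNA, and Smad6 and Smad7, whose proteins feed back on the receptors. In the eye, Bmp4 and Bmp7 are needed for induction of the lens from surface ectoderm, and BMP receptors act later in the survival of lens cells and the differentiation of fibers.

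A GGCGCC element next to a GTCT element, each bound by SMAD proteins, is the best known BMP-responsive arrangement of the Id1 gene. Upstream windows of 250 bases were taken from RefSeq on GRCm38.p6 for 7 of the 10 members, 9 windows in all, and searched for GGCGCC, which reads the same on both strands. Id1, Bmp7 and Smad7 were left out of the search, so whether their upstream sequence holds a match was not tested. A match was present in the windows of Id2, Id4 and Bmpr1a, and absent from those of Id3, Bmp4, Bmpr1b and Smad6. GGCGCC occurred in 9.59% of 32851 such windows over all genes. The windows with a match held 62.8% (Id2), 75.6% (Id4) and 78.8% (Bmpr1a) G and C. Those without a match held 62.8% (Id3), 63.2% (Bmp4), 66.8% (Smad6) and 46.8% to 56.4% (Bmpr1b). The share over all windows was not matched for base composition, so it is no like-for-like background for these members. The joined form, GGCGCC, any 5 bases and then GTCT, contains GGCGCC and was searched on both strands. It was in none of the member windows and in 0.070% of all windows. At so low a share, its absence from 9 windows does not set the members apart. Sequence more than 250 bases before the start was not searched. The stretches of Id2, Id4 and Bmpr1a are shown because they hold the match. One of the 3 windows of Bmpr1b, which like these was higher in cKO lenses, and that of Smad6, which did not pass the test, are shown as stretches without it. The sequences run 5′ to 3′ toward the transcript start, bases that GENCODE M21 annotates as exon are left out, and capitals mark GGCGCC. The windows lie upstream of the RefSeq start, but those of Id2, Id3, Bmpr1a and Bmpr1b fall inside the gene bounds of GENCODE M21, where a longer transcript begins further upstream. The printed stretches of Id2, Bmpr1a and Bmpr1b are therefore intronic in that annotation. Every base of the Id3 window is annotated there as exon.
Id2, chr12:25096254-25096342, minus strand: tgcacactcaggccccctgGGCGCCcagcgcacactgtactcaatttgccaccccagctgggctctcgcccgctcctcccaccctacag
Id4, chr13:48260866-48261115, plus strand: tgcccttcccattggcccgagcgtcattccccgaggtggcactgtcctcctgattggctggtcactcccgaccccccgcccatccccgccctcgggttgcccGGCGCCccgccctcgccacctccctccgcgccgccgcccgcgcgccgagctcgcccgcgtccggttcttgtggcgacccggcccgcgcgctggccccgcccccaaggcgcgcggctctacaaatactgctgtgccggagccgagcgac
Bmpr1a, chr14:34502688-34502796, minus strand: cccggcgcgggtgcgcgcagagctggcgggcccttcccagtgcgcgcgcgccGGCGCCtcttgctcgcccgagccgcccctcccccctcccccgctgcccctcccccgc
Bmpr1b, chr3:141982265-141982514, minus strand: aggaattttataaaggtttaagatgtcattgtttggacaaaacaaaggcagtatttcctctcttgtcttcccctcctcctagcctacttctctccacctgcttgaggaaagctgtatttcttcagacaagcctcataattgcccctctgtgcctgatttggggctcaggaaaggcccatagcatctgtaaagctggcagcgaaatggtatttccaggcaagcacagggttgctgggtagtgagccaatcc
Smad6, chr9:64022060-64022309, minus strand: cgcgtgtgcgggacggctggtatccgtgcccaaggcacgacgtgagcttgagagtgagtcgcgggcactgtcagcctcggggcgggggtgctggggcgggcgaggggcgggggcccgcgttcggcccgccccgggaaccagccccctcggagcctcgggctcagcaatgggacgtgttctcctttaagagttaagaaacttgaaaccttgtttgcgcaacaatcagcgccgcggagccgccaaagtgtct
A match of these letters describes the sequence and is no evidence of binding.

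Depth differed, since each cKO library had between 20036554 and 28095318 reads and each wild-type library between 10023049 and 11531139. Itgb1 itself (GRCm38 chromosome 8, 128685654 to 128733200), counted over the whole gene because the labels do not give the deleted part, averaged 258 ± 19.8 CPM in cKO lenses and 425 ± 22.97 CPM in wild-type lenses (SD, n = 3 each), a log2 fold change of -0.72 (SE 0.077, limma adjusted p = 1.63e-05). Of 11941 genes that reached 1 CPM (1 count per 1000000 counted reads) in 3 or more libraries, 36.9% passed an adjusted p of 0.05, 20.9% higher and 15.9% lower in cKO. Of 9 lens fiber markers 0 were higher and 4 lower, with overlapping sums of 56747 to 71450 CPM in cKO lenses and 64251 to 68904 CPM in wild-type lenses, and 6 lens epithelium markers had 1 higher and 3 lower. Markers of surface ectoderm and cornea had summed levels of 0.392 to 0.948 CPM in cKO lenses and 0.614 to 0.798 CPM in wild-type lenses, with Krt12 at 0 reads. Markers of endothelium, pericytes, macrophages and erythroid cells were more abundant in cKO. Of 10 endothelial markers 9 were higher and 0 lower, with sums of 208 to 251 CPM in cKO lenses and 123 to 154 CPM in wild-type lenses. Pericyte markers had 5 of 7 higher and 0 lower (126 to 145 CPM in cKO, 68.9 to 77.4 CPM in wild-type lenses), and all 7 macrophage markers tested of 10 listed were higher (23.4 to 32.8 CPM in cKO, 8.76 to 12.7 CPM in wild-type lenses). Erythroid markers had 1 of 2 tested higher, out of 5 listed, with sums of 8.36 to 15.2 CPM in cKO lenses and 3.68 to 5.59 CPM in wild-type lenses. Neural retina markers had 1 of 2 tested higher, out of 7 listed, and pigment epithelium markers 0 of 2, out of 6, both with overlapping sums. Periocular mesenchyme markers had 3 of 5 tested higher and 1 lower, with overlapping sums of 189 to 224 CPM in cKO lenses and 206 to 249 CPM in wild-type lenses and Foxc2 at 0 reads. In whole lenses, fewer cells of a type and less RNA per cell cannot be told apart, and the part of these other cells in the results below was not tested.

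Of the 10 members, 9 passed the filter on low values, each with more than 1 CPM in all 6 libraries. Of these 9, 5 were higher (Id2, Id4, Bmpr1a, Bmpr1b and Smad7), 2 were lower (Bmp7 and Id3) and 2 did not pass the test (Id1 and Smad6). The background is the 36.9% called over all genes tested. On recovered reads edgeR gave the same 5 and 2 calls, against 40.0% of all genes. The libraries of the 2 groups did not overlap for 8 of the 9, all but Id1, against 48.1% of all genes tested. The median log2 fold change of the 9 was 0.31, beside 0.03 over all genes tested. The members were chosen with earlier results of these data known, so these are no neutral comparisons.

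**Figure D1:**
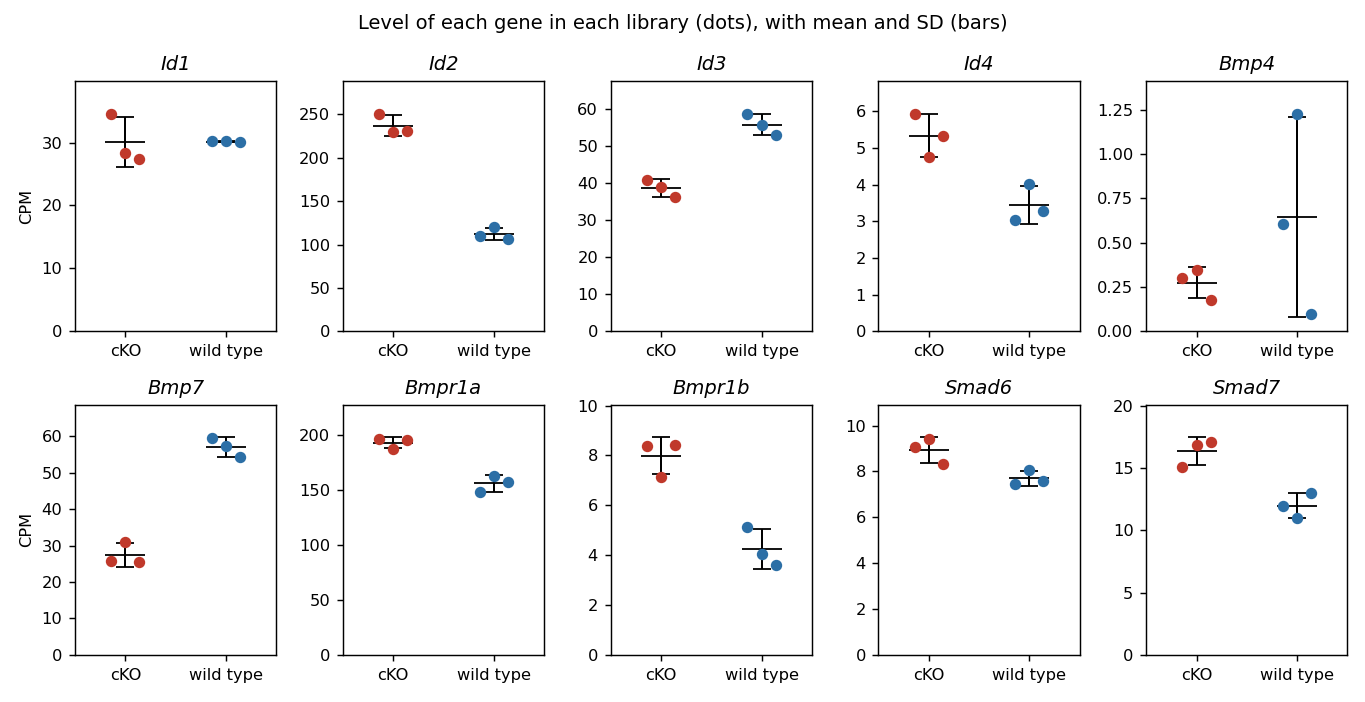
Level of each of the 10 member genes in CPM (vertical axes start at 0 and differ between panels) in the 3 cKO and 3 wild-type libraries; dots are libraries and bars are the mean ± SD. The 3 cKO libraries lie above all wild-type libraries for Id2, Id4, Bmpr1a, Bmpr1b, Smad6 and Smad7 and below them for Id3 and Bmp7, while Id1 and Bmp4 overlap.

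Among the ligands, Bmp7 was the only one with a level above the filter, and it was lower in cKO lenses. BMP7, made by lens and surface ectoderm in early eye development, signals through BMP type I receptors. Bmp7 (ENSMUSG00000008999; chromosome 2, 172868012 to 172940321, minus strand, protein coding) had 25.7, 31.1 and 25.4 CPM in cKO replicates 1, 2 and 3, against 59.6, 57.2 and 54.3 CPM in wild-type replicates 1, 2 and 3. Each cKO library lay well below every wild-type library. The mean was 0.480 times that of wild type, and the log2 fold change was -1.04 (95% interval -1.23 to -0.84, SE 0.092, limma adjusted p = 3.13e-06). Leaving out any 1 library gave log2 fold changes of -1.13 to -0.99.

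Bmp4 (ENSMUSG00000021835; chromosome 14, 46383520 to 46390669, minus strand) was close to the limit of detection in both groups. It had 6, 7 and 5 reads in the cKO libraries and 7, 14 and 1 reads in the wild-type libraries, which is 0.275 ± 0.0869 CPM in cKO lenses and 0.645 ± 0.565 CPM in wild-type lenses (SD, n = 3 each). The groups overlapped, and wild-type replicate 3 was lower than every cKO library while wild-type replicate 2 was the highest of all. With no filter on low values limma gave a log2 fold change of -0.31 (adjusted p = 0.338), so a difference in Bmp4 was not detectable at this depth. None of the other 9 BMP ligand genes examined passed the filter. Bmp6 had the highest CPM of them, with 0.529 ± 0.363 CPM in cKO lenses and 0.900 ± 0.525 CPM in wild-type lenses, Bmp2 had 26 reads over the cKO libraries and 6 over the wild-type libraries, and Bmp8a had 0 reads in all 6 libraries.

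Both type I receptor members were higher in cKO, from very different levels. Bmpr1a (ENSMUSG00000021796; chromosome 14, 34410734 to 34503341, minus strand) encodes the widely expressed receptor also called ALK3, and Bmpr1b (ENSMUSG00000052430; chromosome 3, 141837136 to 142169425, minus strand) encodes ALK6. Bmpr1a had 197, 188 and 196 CPM in the cKO libraries, against 148, 163 and 157 CPM in the wild-type libraries. The groups were separate, with a mean 1.24 times that of wild type and a log2 fold change of 0.31 (SE 0.070, limma adjusted p = 0.00419). Bmpr1b had 8.38, 7.12 and 8.44 CPM in the cKO libraries, against 5.12, 4.03 and 3.59 CPM in the wild-type libraries. Its mean was 1.88 times that of wild type, with a log2 fold change of 0.78 (SE 0.136, limma adjusted p = 0.000759), and the wild-type values rest on 59, 46 and 36 reads. The ratio of Bmpr1a to Bmpr1b was 21.8 to 24.7 in cKO libraries and 27.2 to 41.1 in wild-type libraries, on the RPKM scale. When GC content and gene length were corrected for, the log2 fold change of Bmpr1a was 0.12 (adjusted p = 0.168), so its call depended on that choice, whereas that of Bmpr1b was kept.

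**Figure D2:**
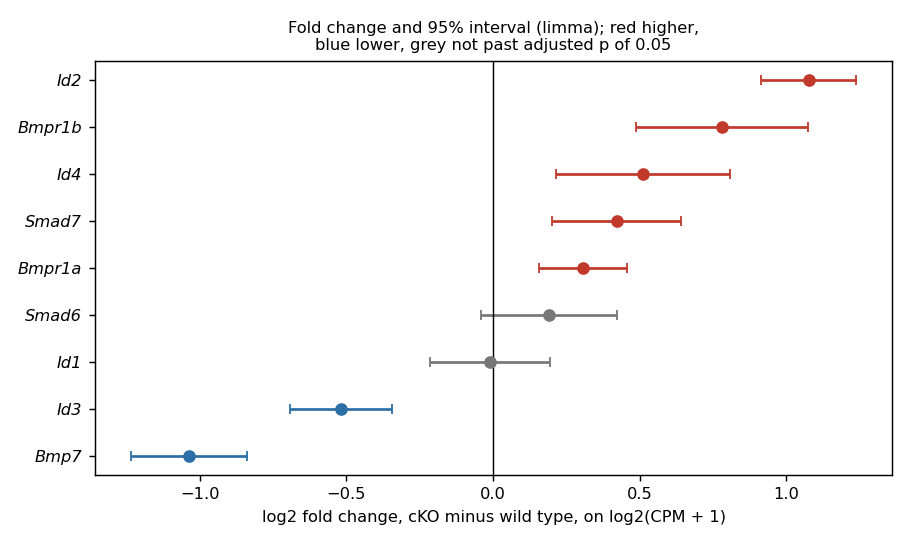
Log2 fold change (cKO minus wild type, on log2(CPM + 1)) of the 9 tested member genes with 95% intervals from limma; red marks genes higher, blue genes lower and grey genes not past an adjusted p of 0.05. Id2 is at 1.08 and Bmp7 at -1.04 at the ends, and the intervals of Id1 and Smad6 include 0.

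Of 8 other receptor and co-receptor genes, 7 were tested, with 3 higher and 1 lower, against 20.9% higher and 15.9% lower over all genes tested. The type II receptor gene Bmpr2 averaged 126 ± 3.73 CPM in cKO lenses and 99.5 ± 16.8 CPM in wild-type lenses (log2 fold change 0.35, limma adjusted p = 0.0203), and Acvr2a averaged 35.6 ± 1.11 CPM in cKO lenses and 29.5 ± 0.759 CPM in wild-type lenses (0.26, adjusted p = 0.0176; SD, n = 3 each). Correction for GC content and length put Acvr2a at -0.02 and Bmpr2 at 0.05, neither past the test, and DESeq2 gave Acvr2a an adjusted p of 0.0612. Without wild-type replicate 2 Acvr2a was at 0.25 (adjusted p = 0.0694), and for Bmpr2 the call ended when cKO replicate 2 (0.33, adjusted p = 0.0641), cKO replicate 3 (0.35, adjusted p = 0.0589) or wild-type replicate 1 (0.21, adjusted p = 0.0550) was left out. Acvrl1, whose product ALK1 is a type I receptor of endothelial cells, averaged 9.11 ± 0.905 CPM in cKO lenses and 5.48 ± 0.988 CPM in wild-type lenses (0.65, adjusted p = 0.00234). It moved with the endothelial markers given above, and their part in its rise was not tested. Acvr2b, another type II receptor gene, was called lower (-0.32, adjusted p = 0.0442) with overlapping groups, and leaving out 1 library ended that call in 4 cases, namely cKO replicates 1 and 3 (-0.31 and -0.26) and wild-type replicates 2 and 3 (-0.31 and -0.24), with adjusted p from 0.0906 to 0.173. It also ended with no filter (adjusted p = 0.0763), with the GC and length correction (0.144) and with thinned reads (0.0891). In all, the GC and length correction called 2 of the 7 higher and 0 lower, against 2000 higher and 2031 lower of 11874 genes. These were Acvrl1 (0.79, limma adjusted p = 0.000217) and a gene that was not called in the main test.

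The genes that carry the signal inside the cell did not pass the test. Smad1 averaged 16.3 ± 0.556 CPM in cKO lenses and 16.5 ± 0.391 CPM in wild-type lenses (log2 fold change -0.02, limma adjusted p = 0.885). Smad5, which like Smad1 encodes a SMAD that the receptor phosphorylates, averaged 85.8 ± 5.52 CPM in cKO lenses and 77.7 ± 8.45 CPM in wild-type lenses (0.15, adjusted p = 0.225). Smad4, the shared partner, averaged 65.3 ± 6.00 CPM in cKO lenses and 63.8 ± 5.77 CPM in wild-type lenses (0.03, adjusted p = 0.811), and Smad9 fell under the filter with 13 reads over the cKO libraries and 6 over the wild-type libraries.

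The inhibitory SMAD genes differed in outcome. Smad7 (ENSMUSG00000025880; chromosome 18, 75367529 to 75395935, plus strand), which blocks both BMP and TGF-β receptors, had 15.1, 16.9 and 17.1 CPM in the cKO libraries, against 11.97, 10.96 and 12.97 CPM in the wild-type libraries. All cKO libraries were higher, with a mean 1.37 times that of wild type and a log2 fold change of 0.42 (SE 0.102, limma adjusted p = 0.00603). Smad6 (ENSMUSG00000036867; chromosome 9, 63953076 to 64022059, minus strand), which acts mainly on BMP signals, had 9.08, 9.40 and 8.33 CPM in the cKO libraries, against 7.46, 8.07 and 7.58 CPM in the wild-type libraries. Although these groups did not overlap either, the log2 fold change of 0.19 had a 95% interval of -0.04 to 0.42 and did not pass the test (adjusted p = 0.186). Correction for GC content and length gave Smad6 0.30 (adjusted p = 0.0374). Whether Smad6 and Smad7 differ in their change was not tested, and the intervals of their fold changes overlap.

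Other brakes of the pathway and its relatives had 3 of 7 higher and 0 lower, against 20.9% and 15.9% over all genes tested. Skil, which encodes the SMAD corepressor SnoN, averaged 103 ± 9.005 CPM in cKO lenses and 70.3 ± 9.28 CPM in wild-type lenses (log2 fold change 0.55, limma adjusted p = 0.00102). Pmepa1, whose membrane protein holds back TGF-β SMADs, was at 0.63 (adjusted p = 0.00269), and Bambi, which encodes a decoy receptor without a kinase domain, at 0.51 (adjusted p = 0.00897). The ubiquitin ligase gene Smurf1 was at -0.21 (adjusted p = 0.130) and overlapped between groups. It passed the test with RLE or TMM scaling, edgeR and limma-voom, which makes 1 brake lower under each of these.

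Secreted antagonists had 0 of 6 tested genes higher and 3 lower, out of 13 listed, against 20.9% and 15.9% over all genes tested. With no filter on low values, 4 of the 13 were lower, against 1746 of 19059 genes. Chrdl1, a chordin-like BMP-binding protein gene, averaged 7.22 ± 0.728 CPM in cKO lenses and 10.9 ± 0.364 CPM in wild-type lenses (log2 fold change -0.53, limma adjusted p = 0.00232). Bmper, which encodes an extracellular BMP regulator, averaged 141 ± 10.4 CPM in cKO lenses and 179 ± 22.8 CPM in wild-type lenses (-0.34, adjusted p = 0.0131), a call lost without wild-type replicate 2 (-0.31, adjusted p = 0.0610). Dand5, a gene of the Cerberus family, was at -0.55 (adjusted p = 0.0168), and lost its call without cKO replicate 2 (-0.39, adjusted p = 0.0749) or wild-type replicate 3 (-0.46, adjusted p = 0.05002). Nbl1 was at 0.30 (adjusted p = 0.117). Of the 7 antagonists under the filter, 2, Sostdc1 and Fstl3, had groups that did not overlap in CPM. The share without overlap among all genes under the filter was not computed. Sostdc1, which encodes an antagonist of BMP and Wnt signals, had 2, 9 and 10 reads in the cKO libraries and 15, 16 and 10 reads in the wild-type libraries, or 0.3003 ± 0.179 CPM in cKO lenses and 1.23 ± 0.211 CPM in wild-type lenses. Fstl3, a follistatin-like gene, had 14, 22 and 28 reads in the cKO libraries and 8, 2 and 4 reads in the wild-type libraries. Its levels were 0.928 ± 0.204 CPM in cKO lenses and 0.423 ± 0.260 CPM in wild-type lenses. The groups of Fstl3 came close, at 0.699 CPM in cKO replicate 1 and 0.694 CPM in wild-type replicate 1. Of its exonic bases, 47.3% overlap a gene on the opposite strand. Noggin and gremlin, classical antagonists, were close to absent, with 2 reads of Nog in each group, and 8 reads of Grem1 over the cKO libraries and 11 over the wild-type libraries.

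Over all 48 other pathway genes together, 30 were tested, and 8 were higher and 5 lower with a median log2 fold change of 0.04. The 13 calls stand against the background of 36.9%, so this is a share near that of all genes. The lower count was 3 when cKO replicate 3, wild-type replicate 2 or wild-type replicate 3 was left out.

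**Figure D3:**
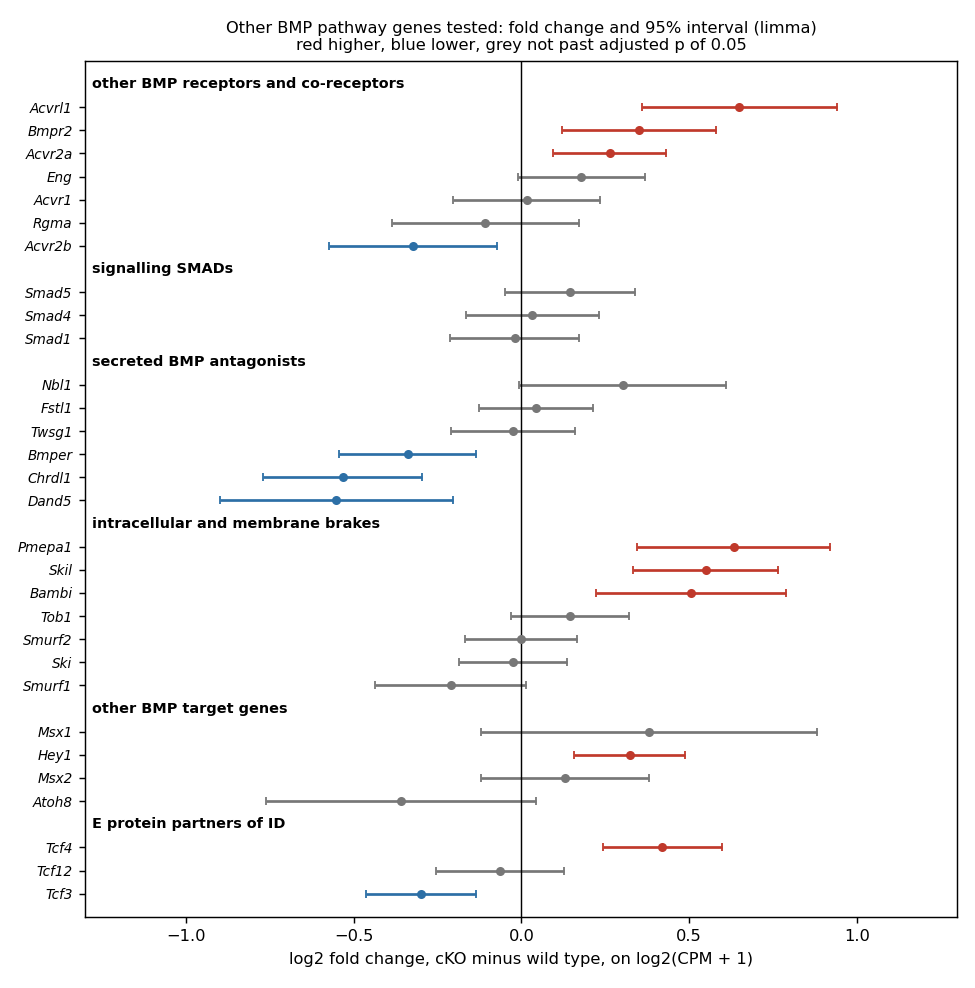
Log2 fold change (cKO minus wild type, on log2(CPM + 1)) with 95% intervals from limma for the 30 other BMP pathway genes tested, grouped by role; red marks genes higher, blue genes lower and grey genes not past an adjusted p of 0.05. The 3 signalling SMAD genes tested lie between -0.02 and 0.15, and 8 of the 30 genes are marked higher and 5 lower.

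The Id genes went in different directions. Id2 rose, Id4 rose from a low level, Id3 fell and Id1 did not pass the test. ID proteins have a helix-loop-helix region for pairing but no region for binding DNA, so they hold partner proteins inactive. Id2 (ENSMUSG00000020644; chromosome 12, 25093799 to 25097140, minus strand) had 251, 229.7 and 231 CPM in the cKO libraries, against 109, 120.1 and 106 CPM in the wild-type libraries. The lowest cKO library was well above the highest wild-type library. The mean was 2.12 times that of wild type, with a log2 fold change of 1.08 (95% interval 0.92 to 1.24, SE 0.075, limma adjusted p = 3.82e-07) and values of 1.04 to 1.13 when 1 library was left out. The size of this change exceeded that of 97.9% of the genes tested, and that of Bmp7 exceeded 97.7%.

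Id3 (ENSMUSG00000007872; chromosome 4, 136143497 to 136145755, plus strand) had 40.9, 38.8 and 36.1 CPM in the cKO libraries, against 58.6, 55.5 and 52.98 CPM in the wild-type libraries. All 3 cKO libraries were lower, with a mean 0.693 times that of wild type and a log2 fold change of -0.52 (SE 0.081, limma adjusted p = 0.000351). Id1 (ENSMUSG00000042745; chromosome 2, 152736251 to 152737410, plus strand), which like Id3 is known for expression in endothelium, had 34.6, 28.3 and 27.3 CPM in the cKO libraries, against 30.2, 30.2 and 30.0 CPM in the wild-type libraries. The wild-type libraries lay inside the range of the cKO libraries. The log2 fold change of -0.01 had a 95% interval of -0.22 to 0.19 (adjusted p = 0.946). Id3 was lower in the same cKO libraries in which endothelial markers were higher, and the part of endothelial cells in the Id1 and Id3 values was not tested.

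Id4 (ENSMUSG00000021379; chromosome 13, 48261228 to 48266026, plus strand) had 5.94, 4.75 and 5.34 CPM in the cKO libraries, against 3.04, 4.03 and 3.29 CPM in the wild-type libraries, which rest on 35, 46 and 33 reads. The groups did not overlap, with a mean 1.55 times that of wild type and a log2 fold change of 0.51 (SE 0.137, limma adjusted p = 0.0106). With correction for GC content and length the value was 0.26 (adjusted p = 0.162), so the call depended on that choice.

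Id2 was the most abundant Id transcript per length in both groups, and its share was higher in every cKO library than in any wild-type library. The summed level of the 4 Id genes was 254, 229.8 and 229 RPKM in the cKO libraries, against 147, 154 and 141 RPKM in the wild-type libraries. The share of Id2 in this sum was 77.8% to 79.5% in cKO and 58.7% to 61.4% in wild type. That of Id3 was 8.83% to 9.42% in cKO and 20.1% to 22.3% in wild type, and that of Id1 was 10.3% to 11.7% in cKO and 16.9% to 18.3% in wild type. The ratio of Id2 to Id3 was accordingly 8.35 to 9.003 in cKO and 2.63 to 3.05 in wild type, on the RPKM scale. Per length, these levels depend on the gene length used. The length behind the deposited RPKM was 1270 bases for Id2 and 1660 for Id4, whereas the merged exons of GENCODE M21 hold 2438 and 3849 bases. With the GENCODE lengths the share of Id2 was 65.5% to 67.7% in cKO and 43.0% to 45.9% in wild type. These lengths divide the same deposited CPM, and reads were not recounted on the longer models.

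**Figure D4:**
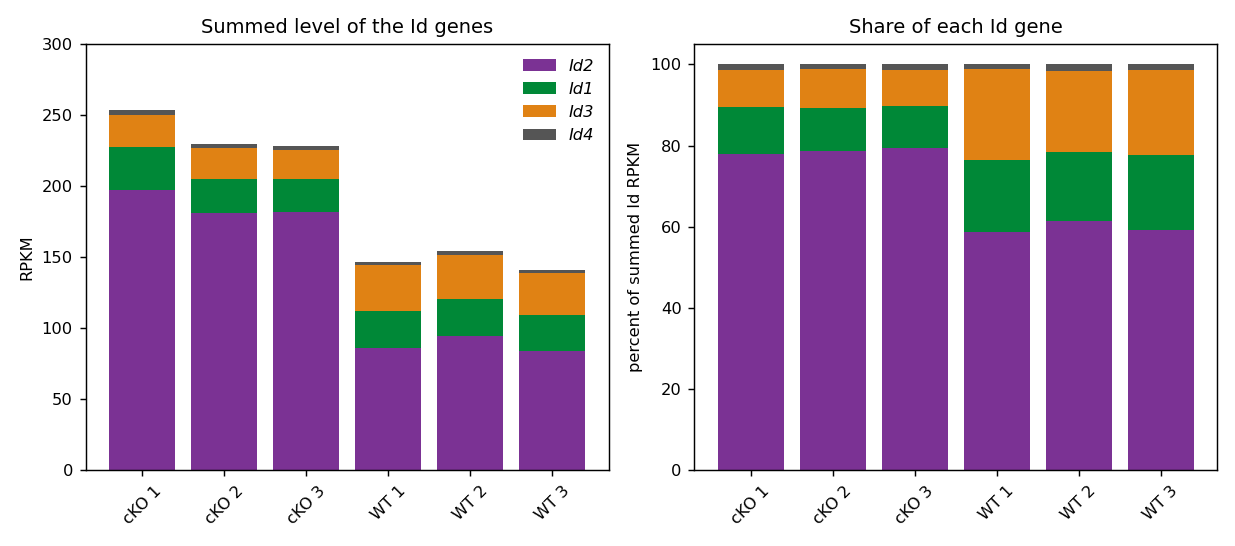
Left, summed level of Id1, Id2, Id3 and Id4 in RPKM in each cKO and wild-type (WT) library, stacked by gene; right, the share of each gene in that sum in percent. The sum is 229 to 254 RPKM in cKO and 141 to 154 RPKM in wild type, and the Id2 share is above 77% in each cKO library and below 62% in each wild-type library.

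The E protein genes, whose products are the partners of ID proteins, were split as well. Tcf4 averaged 95.3 ± 4.97 CPM in cKO lenses and 71.1 ± 6.10 CPM in wild-type lenses (log2 fold change 0.42, limma adjusted p = 0.00166), Tcf3 averaged 84.9 ± 3.73 CPM in cKO lenses and 105 ± 6.50 CPM in wild-type lenses (-0.30, adjusted p = 0.00817), and Tcf12 averaged 95.9 ± 10.9 CPM in cKO lenses and 99.9 ± 5.34 CPM in wild-type lenses (-0.06, adjusted p = 0.610, and -0.19 with adjusted p = 0.0289 after correction for GC content and length). The Tcf3 call was lost without cKO replicate 3 (-0.26, adjusted p = 0.0566). Of 4 other genes known as BMP targets, Hey1, a transcriptional repressor gene that Notch signals also induce, was higher (71.1 ± 3.43 CPM in cKO, 56.6 ± 2.76 CPM in wild-type lenses, log2 fold change 0.32, adjusted p = 0.00539). The homeobox genes Msx1 (0.38, adjusted p = 0.216) and Msx2 (0.13, adjusted p = 0.407) and the transcription factor gene Atoh8 (-0.36, adjusted p = 0.151) did not pass the test. Msx1 did pass it without wild-type replicate 2 (0.64, adjusted p = 0.0260), and Atoh8 without wild-type replicate 1 (-0.55, adjusted p = 0.0290).

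Ordered by deposited RPKM, which divides by gene length, Id2 stood first in both groups, at 187 ± 9.42 in cKO and 88.1 ± 5.72 in wild type (SD, n = 3 each), and no library of the next gene reached it. In cKO, Bmpr1a (30.4 ± 0.764), Id1 (25.9 ± 3.39), Id3 (21.5 ± 1.33) and Bmp7 (6.81 ± 0.805) followed, and only Bmpr1a and Id1 overlapped among these neighbours. In wild type the order was Id3 (31.1 ± 1.58), Id1 (25.99 ± 0.0943), Bmpr1a (24.6 ± 1.20) and Bmp7 (14.2 ± 0.661), with no overlap between neighbours. Id3 thus stood above Id1 and Bmpr1a in every wild-type library and below both in every cKO library. Smad7, Id4 and Smad6 formed a lower tier of 2.79 to 3.62 RPKM in cKO and 2.08 to 2.65 RPKM in wild type, in which neighbours overlapped. With GENCODE lengths and unchanged CPM, Id4 averaged 1.39 RPKM in cKO and 0.897 RPKM in wild type, which is below Smad6 and next to Bmpr1b. Bmpr1b was at 1.34 ± 0.125 RPKM in cKO and 0.712 ± 0.132 RPKM in wild type, and Bmp4 was last in both groups.

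The base composition of the transcripts ran alongside the direction of several changes. The mean GC content of annotated transcripts was 42.6% for Id4, 43.2% for Bmpr1a, 45.1% for Bmpr1b and 45.9% for Id2, all higher in cKO, and 56.2% for Id3 and 55.96% for Bmp7, both lower in cKO. Smad7, at 58.6%, was higher in cKO and did not follow this order, and the median over the genes tested was 50.2%. Id1 and Smad6, which did not pass the test, were at 55.0% and 60.5%, and each cKO library of Smad6 lay above every wild-type library. After that correction for GC content and length Id2 was at 0.92, Bmp7 at -0.91, Bmpr1b at 0.67, Smad7 at 0.55 and Id3 at -0.42, each still past the test. Without the correction they were at 1.08, -1.04, 0.78, 0.42 and -0.52, in the same order. The change of Smad7 was thus larger in size with the correction, and the changes of the others were smaller. Shared sequence was small for all members, since at most 4.06% of the 32-base words of a member (Bmpr1a) occurred in transcripts of another gene. The kit does not mark strand, and exons of other genes on the opposite strand cover 4.57% of the exonic bases of Bmpr1a and, for the larger of its 2 overlaps, 4.44% of those of Id4.

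**Figure D5:**
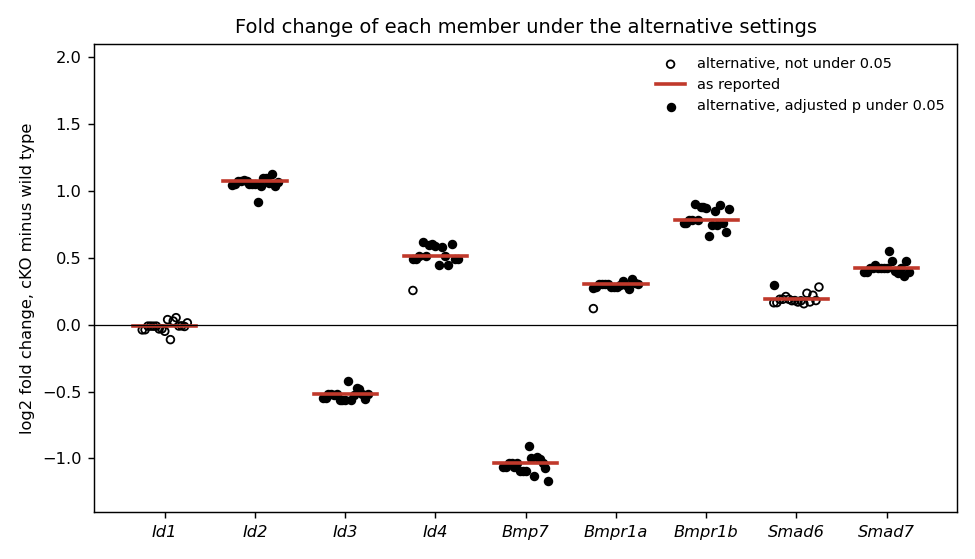
Log2 fold change (cKO minus wild type) of the 9 tested member genes as reported (red lines) and under each alternative setting (dots; filled where the adjusted p was under 0.05, open where it was not). Id2, Id3, Bmp7, Bmpr1b and Smad7 stay past the test on 1 side of 0 in every alternative run, whereas Id4, Bmpr1a and Smad6 each change side of the threshold under 1 alternative and Id1 lies on both sides of 0.

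Genes with the most similar profile to Id2 and to Bmp7 over the 6 libraries were sought by Pearson r of log2(CPM + 1) among the 8040 tested genes averaging 10 CPM or more, as a description. For Id2 these were D1Ertd622e (r = 0.999), Ell2 and Ap1s2 (both r = 0.998), with means of 79.1, 778 and 45.2 CPM in cKO lenses and 41.6, 485 and 26.7 CPM in wild-type lenses. For Bmp7 they were Idh3g (r = 0.999), Morc3 and Asah1 (both r = 0.998). The 6 libraries fall into 2 groups, and every gene that differs between them shares that step. In all, 59 genes reached an r of 0.99 with Id2 and 37 with Bmp7, and r ignores the size of a change, as the log2 fold change of -0.07 of Morc3 shows.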

How the data were processed

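RNA was sequenced from 3 cKO and 3 wild-type pools of lenses, and poly(A) libraries were read single-end, per the labels' protocols. The authors deposited CPM values, scaled to 1000000 counted reads, and RPKM values, which also divide by gene length, per the file headers. GRCm38 and edgeR are named in the submitters' processing notes. The aligner and the counter were not given in the sources used. CPM values were whole multiples of 1 read within 0.02 reads in 100% of values, so reads were recovered. Features listed by symbol with no Ensembl ID, which were kept, held 0.192% to 0.208% of the reads. At these depths 1 read is worth 0.0356 to 0.0998 CPM. Intervals from limma cover the spread between pools, which the labels call biological replicates.

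The main test was limma 3.58.1 (limma-trend, robust, group only) on log2(CPM + 1) for genes reaching 1 CPM in 3 or more libraries, two-sided, with Benjamini-Hochberg adjustment over all 11941 genes tested. Fold changes on this scale understate the change of low genes. Alternatives were RLE or TMM scaling, no filter, a filter on the mean (5 CPM or more), 0.1 as pseudocount, a replicate block, edgeR 4.0.16, DESeq2 1.42.0 and limma-voom on recovered reads, correction for GC content and length, and leaving out each library. Reads thinned to 10023049 per library and GENCODE M21 lengths were added after seeing the data. With edgeR on the full recovered reads 2388 genes were higher and 2388 lower. Fits by limma-trend, the replicate block, edgeR, DESeq2, limma-voom and the GC and length correction were tested on simulated counts. The other alternatives were not. Coordinates come from GENCODE M21 (GRCm38).

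The members and gene lists were chosen with earlier results of these data known. Named genes are the members, Itgb1, up to 4 genes of each pathway list with the smallest adjusted p, and the 3 genes most like Id2 and Bmp7. Bmp2, Bmp6, Bmp8a, Smad9, Nog, Grem1, Sostdc1 and Fstl3 fall outside this rule and were chosen after their values were seen.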

Additional observations from a re-analysis of the deposited data

How the results depend on the processing

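Id2, Id3, Bmp7, Bmpr1b and Smad7 kept their direction and stayed past the threshold in every alternative that was run. With correction for GC content and length, the log2 fold change was 0.26 for Id4 (limma adjusted p = 0.162) and 0.12 for Bmpr1a (0.168), both no longer called, and 0.30 for Smad6 (0.0374), newly called. Id1, never past the test, was at 0.038 with that correction, 0.014 with thinned reads and -0.11 to 0.053 when 1 library was left out. The same correction put Acvr2a at -0.016 and Smad1 at 0.043, thinned reads put Smad4 at -0.019, and leaving out 1 library gave Smad4 -0.041 to 0.11, Smad1 -0.036 to 0.0073 and Tcf12 -0.13 to 0.029, none of them called. The causes were not tested. The count of other pathway genes lower in cKO was 3 to 6 when 1 library was left out, against 5. Bmp4 has a value only without the filter, and Id4 has none with a mean of at least 5 CPM. Deviations of same-numbered libraries correlated at 0.33, -0.03 and 0.15 for numbers 1, 2 and 3. As 1 of these is not above 0.1 and not every library correlated best with its own number, the numbers were not taken as pairs. The replicate block, which called 2916 genes higher and 2249 lower against 2499 and 1904, changed no call of a member and newly called Msx1 (adjusted p = 0.0341). Bmp4 rests on 1 to 14 reads per library.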
